A study of Mus musculus with 34 samples.

Results

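Isolated hepatocytes were compared with whole hepatic tissue in 4 mouse libraries, 2 of hepatocytes and 2 of tissue, out of 34 libraries in the series. The 4 were chosen by their labels alone: they stand in 1 table of 10 libraries and were run on 1 lane of 1 flow cell by their titles. The study converted fibroblasts, through a chemically induced state resembling extraembryonic endoderm, into neuronal and hepatocyte-like cells, and these 4 libraries are its liver references. Poly-A RNA was sequenced with a kit that does not mark strand, and the deposited values are FPKM, fragments scaled to transcript length and library size. All 4 libraries carry the same strain label, Mapttm2(EGFP)Klt/J, a mouse line with EGFP placed in the Mapt (tau) locus. The labels name hepatocytes and hepatic tissue and give no age, sex, feeding state, number of animals or way of isolating the cells. They tie no library to an animal, so a p-value here reflects spread among libraries, not among a known number of animals. Part of that spread may be technical.

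Hepatocytes make up most of the mass of the liver and secrete albumin, apolipoproteins, clotting factors and other plasma proteins. The other cells lie between the hepatocyte plates: sinusoidal endothelial cells with their scavenger receptors, Kupffer cells as the resident macrophages, stellate cells that store vitamin A and lay down matrix, bile duct cells, and blood held in the vessels. Hepatocytes are commonly freed by perfusing the liver with collagenase and spinning the cells down at low speed, a procedure known to wash out blood, to leave behind many of the smaller cells and to start an early stress response in hepatocytes. The comparison asks which transcripts of whole tissue were lower in the isolated cells, and which were higher.

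The 4 libraries fell into pairs that cut across the groups. Xist, the RNA that silences the second X chromosome of females, stood at 40.7 FPKM in hepatocytes 1 and 0.0243 FPKM in hepatocytes 2, against 0.00583 FPKM in tissue 1 and 8.34 FPKM in tissue 2. Ddx3y, a Y-linked RNA helicase, stood at 0 and 10.7 FPKM in hepatocytes 1 and 2, against 2.99 and 0.0545 FPKM in tissue 1 and 2. Hepatocytes 1 and tissue 2 are therefore called the Xist pair here, and hepatocytes 2 and tissue 1 the Y pair. The pairing was set after these values were seen, and whether the libraries of a pair share an animal cannot be told from the labels. The libraries of each group differed in these sex chromosome transcripts, so they are not repeats of 1 animal.

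Liver genes known to differ between male and female mice split the same way. Cyp4a12a, a male-biased arachidonic acid hydroxylase, measured 1.31 and 151 FPKM in hepatocytes 1 and 2, against 188 and 0.599 FPKM in tissue 1 and 2. Cyp3a41a, a female-biased P450, measured 875 and 0.293 FPKM in hepatocytes 1 and 2, against 0.757 and 1142 FPKM in tissue 1 and 2. Fasting and feeding genes did so too: Igfbp1, an insulin-suppressed binding protein, measured 631 and 15.3 FPKM in hepatocytes 1 and 2, against 5.31 and 598 FPKM in tissue 1 and 2. Srebf1, the feeding-induced regulator of lipid synthesis, ran the other way, with 27.0 and 386 FPKM in hepatocytes 1 and 2, against 252 and 18.5 FPKM in tissue 1 and 2. Each of these 4 autosomal genes lay closer within a pair than between the libraries of 1 group.

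**Figure D1:**
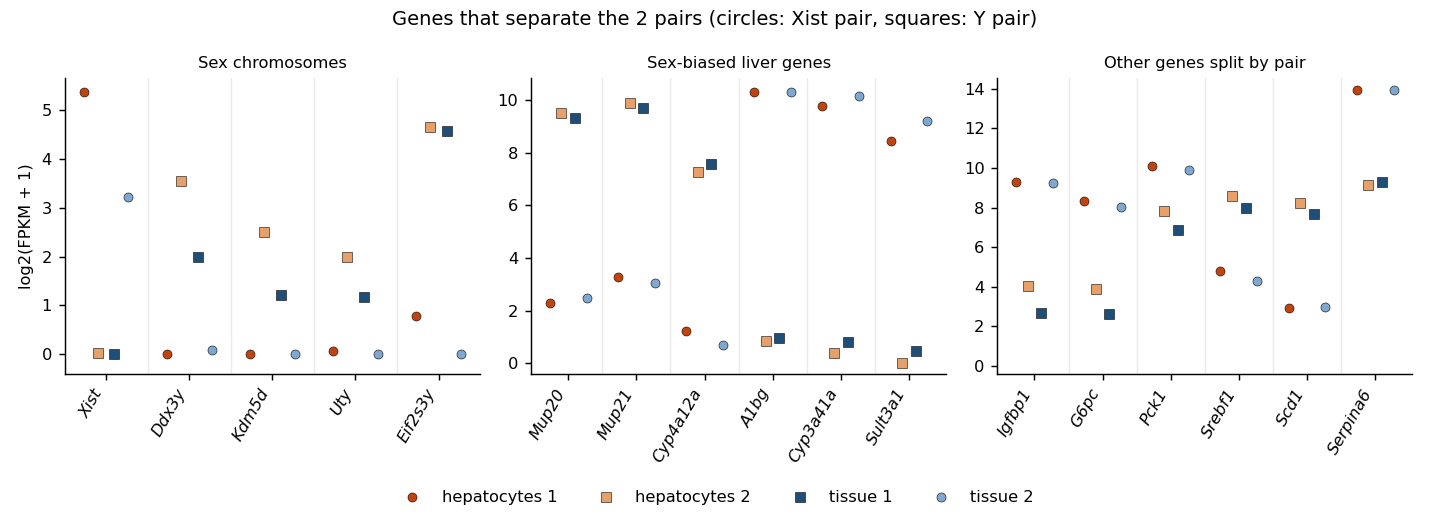
Levels of sex chromosome transcripts, sex-biased liver genes and other genes in the 4 libraries, as log2(FPKM + 1); circles are hepatocytes 1 and tissue 2, squares are hepatocytes 2 and tissue 1. Circles lie together and squares lie together for the autosomal genes, as with Igfbp1 at 631 FPKM in hepatocytes 1 and 598 FPKM in tissue 2 but 15.3 FPKM in hepatocytes 2 and 5.31 FPKM in tissue 1.

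Over the 10545 autosomal genes that reached 1 FPKM in at least 2 of the 4 libraries, 372 differed by at least 1 log2 unit of FPKM + 1 between the libraries of the Xist pair and 1107 between those of the Y pair. Between libraries of 1 group the number was larger, 2182 for the 2 hepatocyte libraries and 2294 for the 2 tissue libraries. The correlation of log2 values over these genes was 0.975 in the Xist pair and 0.944 in the Y pair, against 0.877 between the hepatocyte libraries and 0.890 between the tissue libraries; genes are not independent replicates. Total counts are not known. The spacing of the lowest values in single-exon genes implied about 7100000 fragments in each library of the Xist pair and 8900000 in each library of the Y pair. This rough estimate rests on annotated lengths and on coarse bins. The values are centres of neighbouring bins, so equal values in a pair and the gap between pairs are known only to a bin. Between 10312 and 10472 genes per library reached 1 FPKM, and the 20 highest genes held 30.5% to 35.6% of the summed FPKM.

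The linear model (limma, log2(FPKM + 1), all 10 libraries of the table, Benjamini-Hochberg adjustment) called 0 of the 10545 autosomal genes, or 0%, between hepatocytes and tissue, at an adjusted p under 0.05, a difference of at least 1 log2 unit and no overlap of the groups. The smallest adjusted p was 0.124, and 295 genes, or 2.8%, had an unadjusted p under 0.05. The other libraries of the table are fibroblasts and hepatocyte-like cells, so the spread behind each SE and p comes partly from those cells. With a term for the Xist and Y pairs in the same limma model, added after the pairs were seen, 5 genes were called lower in hepatocytes, or 0.0474%, and 1 higher, or 0.00948%. The lower ones were Hbb-bs, Hbb-bt, Tcf21, Vipr1 and the unnamed gene model Gm13021, and the higher one was the alpha-macroglobulin pseudogene Mug-ps1. Tcf21 passed the filter through tissue alone, so the filter set its direction. That pair term itself, the libraries of the Xist pair against those of the Y pair, called 604 genes, or 5.73%.

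The results are therefore given as values in each library, with a count of the genes that differed by at least 1 log2 unit in the same direction in both pairs while the hepatocyte and tissue values did not overlap. This rule was met by 73 genes lower in hepatocytes, 0.692% of those measured, and 65 genes higher in hepatocytes, 0.616%. Values did not overlap for 1339 genes lower in hepatocytes, or 12.7%, and for 1569 genes higher in hepatocytes, or 14.9%. The median difference over all 10545 genes was -0.03 log2 units in the Xist pair and 0.00 in the Y pair. Of the 73 lower genes, 17 belong to the lists of markers for cells other than hepatocytes (23.3%), against 90 of the 10545 genes measured (0.853%). Of the 65 higher genes, 1 belongs to those lists (1.54%). Some of the 17, Ackr1, Spp1 and Tcf21 among them, passed the filter through tissue alone, so the filter set their direction. The same can hold for list members counted below and, through hepatocytes alone, for genes counted as higher. The lists were chosen with earlier results of these data known, so these shares describe and support nothing.

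**Figure D2:**
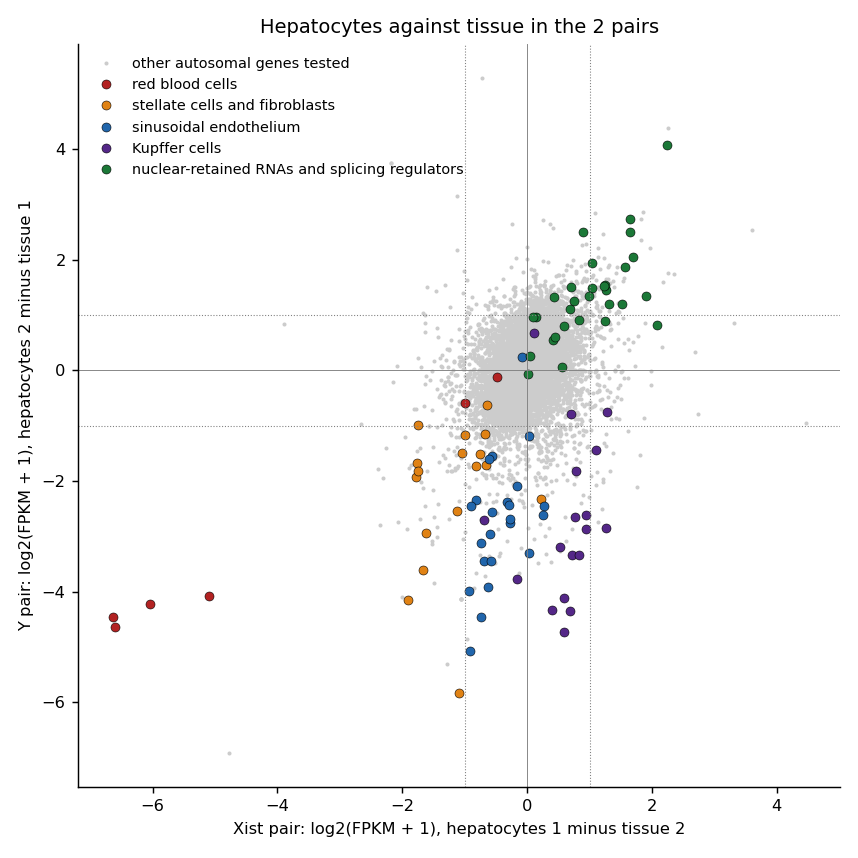
Difference in log2(FPKM + 1) of each of the 10545 autosomal genes, hepatocytes minus tissue, in the Xist pair (horizontal) and the Y pair (vertical); dotted lines mark 1 log2 unit either way and colours mark gene lists. Globin genes lie at the lower left, 9 of 17 stellate cell genes beyond 1 log2 unit below 0 in both pairs, Kupffer cell genes low in the Y pair with 16 of 18 above 0 in the Xist pair, and nuclear RNAs and splicing regulators at the upper right.

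Averaged over both pairs, the globin genes were the furthest below tissue of the genes named here; in the Y pair alone Ecm1 was further below, at -5.83 log2 units against -4.64 for Hbb-bt. The globin promoters are shown because the 4 genes were lower together and because the copies of each chain have similar transcripts. Hbb-bs and Hbb-bt encode the adult beta chain of hemoglobin on chromosome 7, and Hba-a1 and Hba-a2 the alpha chain on chromosome 11. The 250 bases before each start site are printed 5′ to 3′ from the RefSeq promoter table of build GRCm38.p6, at chr7:103827929-103828178 on the minus strand (Hbb-bs), chr7:103813924-103814173 on the minus strand (Hbb-bt), chr11:32283422-32283671 on the plus strand (Hba-a1) and chr11:32296242-32296491 on the plus strand (Hba-a2). Capitals mark, on either strand, the letters GATAA (a core bound by GATA factors), CACCC (bound by KLF factors), CCAAT (the box bound by NF-Y) and TATAA (the TATA box), none overlapping another kind, motifs picked after the sequences were read.
Hbb-bs: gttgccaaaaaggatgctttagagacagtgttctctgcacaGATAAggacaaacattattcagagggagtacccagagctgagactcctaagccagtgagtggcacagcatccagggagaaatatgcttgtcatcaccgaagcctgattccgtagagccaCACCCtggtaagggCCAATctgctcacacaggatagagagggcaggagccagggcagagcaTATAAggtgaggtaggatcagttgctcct
Hbb-bt: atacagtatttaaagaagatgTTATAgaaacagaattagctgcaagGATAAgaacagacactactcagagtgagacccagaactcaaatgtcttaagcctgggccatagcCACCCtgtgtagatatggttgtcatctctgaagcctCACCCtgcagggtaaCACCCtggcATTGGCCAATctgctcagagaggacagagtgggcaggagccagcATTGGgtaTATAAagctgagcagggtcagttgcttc
Hba-a1: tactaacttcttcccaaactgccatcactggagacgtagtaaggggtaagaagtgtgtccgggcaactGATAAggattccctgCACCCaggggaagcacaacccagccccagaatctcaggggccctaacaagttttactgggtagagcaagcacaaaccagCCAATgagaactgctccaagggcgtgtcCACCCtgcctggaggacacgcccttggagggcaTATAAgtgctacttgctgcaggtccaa
Hba-a2: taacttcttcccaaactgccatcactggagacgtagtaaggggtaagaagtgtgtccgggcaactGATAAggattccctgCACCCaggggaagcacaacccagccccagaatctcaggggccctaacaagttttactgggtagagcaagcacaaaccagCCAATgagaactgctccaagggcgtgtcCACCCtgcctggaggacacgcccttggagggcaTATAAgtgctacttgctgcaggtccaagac
All 4 windows hold each of the 4 motifs. Among all 32851 promoters of the table, 22.6% hold GATAA, 52% hold CACCC, 33.8% hold CCAAT and 22.8% hold TATAA in the same window, so a match is a description and not a binding site. The Hba-a1 and Hba-a2 windows were identical over the 247 bases that align, and their longest transcripts differed at 1 of 538 aligned bases, so how reads were split between these copies is uncertain. The Hbb-bs and Hbb-bt transcripts were 92.7% identical over 626 aligned bases.

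Hbb-bs (chr7:103826534-103828096, minus strand, build mm10, positions here and for the genes that follow from GENCODE vM21) measured 39.5 and 18.8 FPKM in hepatocytes 1 and 2, against 435 and 4025 FPKM in tissue 1 and 2. Tissue thus held 102 times the hepatocyte level in the Xist pair and 23.2 times in the Y pair, and both hepatocyte values lay below both tissue values. The group means were 29.1 ± 14.7 FPKM in hepatocytes and 2230 ± 2538 FPKM in tissue (SD, n = 2 each), and the tissue libraries themselves lay far apart. The limma difference was -5.55 (SE 0.82, adjusted p = 0.159), and with the pair term -5.55 (SE 0.45, adjusted p = 0.00758). Hbb-bt measured 14.8 and 6.47 FPKM in hepatocytes, against 185 and 1523 FPKM in tissue. Hba-a1 measured 30.6 and 15.9 FPKM in hepatocytes, against 316 and 2089.9 FPKM in tissue, and Hba-a2 22.9 and 11.3 FPKM, against 207 and 815 FPKM. All 4 globin genes met the both-pairs rule, and the alpha genes were not called in the limma fit with the pair term. In that fit the SE was 0.45 for Hbb-bs, 0.42 for Hbb-bt, 1.79 for Hba-a1 and 1.77 for Hba-a2. With the 4 liver libraries alone, and no pair term, it was 1.11, 1.07, 0.968 and 0.777. With all 10 libraries and no pair term it was 0.82, 0.79, 1.74 and 1.69 in the same order. The alpha genes thus had the larger SE in the fits on all 10 libraries and the smaller in the 4 liver libraries alone. The split in calls therefore does not describe spread in liver, and its source was not tested.

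Of the other 6 autosomal red cell genes in the table, 4 were below the filter, among them Slc4a1, the anion exchanger of the red cell membrane, and Epb42. Bpgm, which makes the hemoglobin effector bisphosphoglycerate, measured 14.6 and 5.23 FPKM in hepatocytes, against 5.77 and 20.7 FPKM in tissue, and Ube2l6 4.34 and 40.2 FPKM, against 61.2 and 9.61 FPKM; for both, the groups overlapped. Summed over the 10 genes, the red cell list stood in hepatocytes at 1.5% of its tissue level in the Xist pair and at 8.1% in the Y pair, or at 5.04% in the Y pair without Ube2l6. In bulk RNA, fewer cells of a type and less RNA per cell cannot be told apart, here and in the lists that follow.

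Genes of stellate cells and fibroblasts were mostly lower in both hepatocyte libraries, though by different amounts. Of the 24 genes of this list in the table, 17 passed the filter, 9 were lower by at least 1 log2 unit in both pairs, where 0.692% of all genes were, and 15 had values that did not overlap, all lower in hepatocytes, where 12.7% of all genes were. The median difference was -1.10 log2 units in the Xist pair and -1.73 in the Y pair, where the medians of all genes were -0.03 and 0.00. In the Xist pair 16 of the 17 were below 0. The member above 0 there was Col3a1, a collagen, at 1.33 times its tissue level, against 0.0139 times in the Y pair. The list summed to 35.4% of its tissue level in hepatocytes 1 and to 3.19% in hepatocytes 2, or to 27.0% and 5.67% without Ecm1, its highest member. Such percents set each hepatocyte library against the tissue library of its own pair, here and in the lists that follow.

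Ecm1, a secreted matrix protein made by stellate cells (chr3:95734147-95739569, minus strand), measured 39.8 and 0.645 FPKM in hepatocytes 1 and 2, against 92.9 and 86.2 FPKM in tissue 1 and 2. Dcn, the small proteoglycan decorin, measured 10.9 and 0.454 FPKM in hepatocytes, against 24.9 and 43.5 FPKM in tissue. For both, hepatocytes 1 lay below the tissue libraries and hepatocytes 2 far lower still. Tcf21, a transcription factor of stellate cells, was low in both preparations, with 0.114 and 0.217 FPKM in hepatocytes, against 2.90 and 2.77 FPKM in tissue. It passed the filter through tissue alone, so the filter set its direction and its test is no support. Tcf21 fell by 1.72 log2 units in the limma fit with the pair term (SE 0.20, adjusted p = 0.0455). Vipr1, a receptor for vasoactive intestinal peptide, measured 1.95 and 0.0229 FPKM in hepatocytes, against 2.61 and 8.85 FPKM in tissue, and fell by 1.78 log2 units in that fit (SE 0.18, adjusted p = 0.032). Colec11, a collectin, measured 1.97 and 0.0934 FPKM in hepatocytes, against 12.4 and 8.40 FPKM in tissue. Rgs5, a pericyte regulator of G protein signalling, measured 1.25 and 0.277 FPKM in hepatocytes, against 3.84 and 6.75 FPKM in tissue. Col1a1, Pdgfra, Pdgfrb, Lrat, Ngfr, Acta2 and Bmp10 were below the filter, with values under 2 FPKM in all 4 libraries.

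Other genes lower in both pairs, chosen after their values were seen, included 3 more of matrix and vessels. Igfbp7, a secreted binding protein of endothelial and mesenchymal cells, measured 37.8 and 2.67 FPKM in hepatocytes, against 145 and 94.0 FPKM in tissue. Sparc, a matrix glycoprotein, measured 9.63 and 1.31 FPKM in hepatocytes, against 32.0 and 29.1 FPKM in tissue. Plvap, which forms the diaphragms of endothelial pores, measured 5.50 and 0.361 FPKM in hepatocytes, against 22.2 and 25.1 FPKM in tissue. Pet100, a mitochondrial assembly factor for cytochrome c oxidase and no marker of another cell type, measured 13.7 and 23.3 FPKM in hepatocytes, against 52.2 and 33.5 FPKM in tissue.

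Genes of the sinusoidal endothelium were far below tissue in hepatocytes 2 and less far below it in hepatocytes 1. Of the 25 genes in the table, 23 passed the filter, and 22 of these were lower by at least 1 log2 unit in the Y pair, where 5.39% of all genes were, while 0 were in the Xist pair, where 1.75% of all genes were. The median difference was -0.57 log2 units in the Xist pair and -2.62 in the Y pair. Values did not overlap for 17 of the 23, all lower in hepatocytes, against 12.7% of all genes, and 19 of the 23 were below 0 in the Xist pair. The list summed to 73.1% of its tissue level in hepatocytes 1 and to 16% in hepatocytes 2. Plpp3, a lipid phosphatase, supplied 45.6 of the 62.2 FPKM in hepatocytes 2, and without it the list stood at 65.0% and 4.77%.

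Stab2, the hyaluronan scavenger receptor that marks these cells (chr10:86841198-87008025, minus strand), measured 13.2 and 4.54 FPKM in hepatocytes 1 and 2, against 11.7 and 12.9 FPKM in tissue 1 and 2. Hepatocytes 1 thus stood at or above both tissue libraries and hepatocytes 2 below them, and the groups overlapped. Clec4g, a lectin of sinusoidal cells, measured 27.6 and 1.49 FPKM in hepatocytes, against 83.0 and 52.8 FPKM in tissue, with no overlap. Fcgr2b, the inhibitory Fc receptor, measured 12.7 and 1.59 FPKM in hepatocytes, against 27.4 and 21.1 FPKM in tissue, and Kdr, the main VEGF receptor, 5.14 and 0.507 FPKM, against 9.15 and 6.42 FPKM. Aqp1, a water channel, measured 13.6 and 1.34 FPKM in hepatocytes, against 50.3 and 23.4 FPKM in tissue. The exception to the pattern in the Y pair was Plpp3, with 82.4 and 45.6 FPKM in hepatocytes, against 38.5 and 87.0 FPKM in tissue.

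Among the 10 autosomal genes of larger vessels in the table, 6 passed the filter and 1 was lower in both pairs. Ackr1, an atypical chemokine receptor of venules, was listed at 0 in both hepatocyte libraries, against 1.23 and 1.06 FPKM in tissue. Vwf, the von Willebrand factor of endothelium and platelets, measured 116 and 0 FPKM in hepatocytes 1 and 2, against 3.90 and 57.9 FPKM in tissue 1 and 2. The sum of this list, 105% and 80% of tissue, was 88.9% Clu, which hepatocytes also express, , so it does not measure the vessels.

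Kupffer cell genes separated the 2 hepatocyte preparations. Of the 18 autosomal genes of the list, all 18 passed the filter, 15 were lower by at least 1 log2 unit in the Y pair, and 16 were above 0 in the Xist pair, 3 of them by at least 1 log2 unit, where 1.77% of all genes were. The median difference was 0.71 log2 units in the Xist pair and -2.86 in the Y pair. The list summed to 148% of its tissue level in hepatocytes 1 and to 13.8% in hepatocytes 2, each within its pair, and 0 members met the both-pairs rule. The sums were 520 and 80.2 FPKM in hepatocytes 1 and 2, against 580 and 351 FPKM in tissue 1 and 2. Hepatocytes 1 thus lay between the tissue libraries. Slc40a1, the iron exporter ferroportin, supplied 52.3 of the 80.2 FPKM in hepatocytes 2, and without it the list stood at 156% and 5.09%.

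Clec4f, a lectin found on Kupffer cells (chr6:83644542-83656187, minus strand), measured 77.5 and 4.60 FPKM in hepatocytes 1 and 2, against 95.3 and 51.1 FPKM in tissue 1 and 2. C1qa, a chain of the complement starter C1q, measured 102 and 3.21 FPKM in hepatocytes, against 111 and 67.5 FPKM in tissue. Hepatocytes 1 thus lay between the tissue libraries for both genes and hepatocytes 2 far below them. Cd5l, a macrophage survival factor, measured 34.0 and 3.45 FPKM in hepatocytes, against 44.2 and 20.4 FPKM in tissue. Slc40a1 was an exception in hepatocytes 2, with 62.6 and 52.3 FPKM in hepatocytes, against 32.5 and 57.8 FPKM in tissue. Marco, a scavenger receptor, measured 10.3 and 0.380 FPKM in hepatocytes, against 1.39 and 5.92 FPKM in tissue, so the tissue libraries differed from each other as well.

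Other immune lists followed the same split. The list of monocytes and neutrophils summed to 95% of tissue in hepatocytes 1 and to 14.1% in hepatocytes 2, with Lyz2, the macrophage lysozyme, at 24.1 and 2.29 FPKM in hepatocytes, against 25.1 and 19.7 FPKM in tissue. The list of B and plasma cells summed to 133% and 6.78%, with Igkc, the kappa light chain, at 27.2 and 0.367 FPKM in hepatocytes, against 5.52 and 21.6 FPKM in tissue. Its sums were 34.5 and 0.734 FPKM in hepatocytes, against 10.8 and 25.9 FPKM in tissue, so the tissue libraries differed from each other as well. The list of dendritic cells summed to 114% and 7.54% and was 84.1% Cd74, the class II invariant chain. Its sum in hepatocytes 1, 37.0 FPKM, lay between those of tissue 1 and 2, at 79.7 and 32.4 FPKM. The list of T and NK cells was near 0 throughout, with 5.31 and 1.26 FPKM summed over 18 genes in hepatocytes, against 10.7 and 9.01 FPKM in tissue.

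Platelet genes were highest in hepatocytes 1. Ppbp, a platelet chemokine, measured 23.6 and 0.253 FPKM in hepatocytes 1 and 2, against 0 and 2.81 FPKM in tissue 1 and 2, and Pf4, platelet factor 4, 22.1 and 0 FPKM, against 0.583 and 8.08 FPKM. Itga2b, the platelet integrin, met the both-pairs rule as higher, with 4.94 and 1.99 FPKM in hepatocytes, against 0.415 and 1.64 FPKM in tissue. The 8 platelet genes summed to 55.8 and 2.39 FPKM in hepatocytes, against 1.05 and 13.6 FPKM in tissue, and in the Y pair Itga2b supplied most of the hepatocyte sum. The bile duct list was at low levels: 4 of 15 genes passed the filter, Krt19, Krt7 and Epcam were under 1 FPKM in all libraries, and its sum was 61.1% Onecut1, which hepatocytes also express; without it the list stood at 58.0% of tissue in the Xist pair and 57.2% in the Y pair. Spp1, osteopontin, was the member lower in both pairs, with 0.192 and 0.456 FPKM in hepatocytes, against 6.98 and 2.73 FPKM in tissue. None of the 7 mesothelial genes passed the filter.

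**Figure D3:**
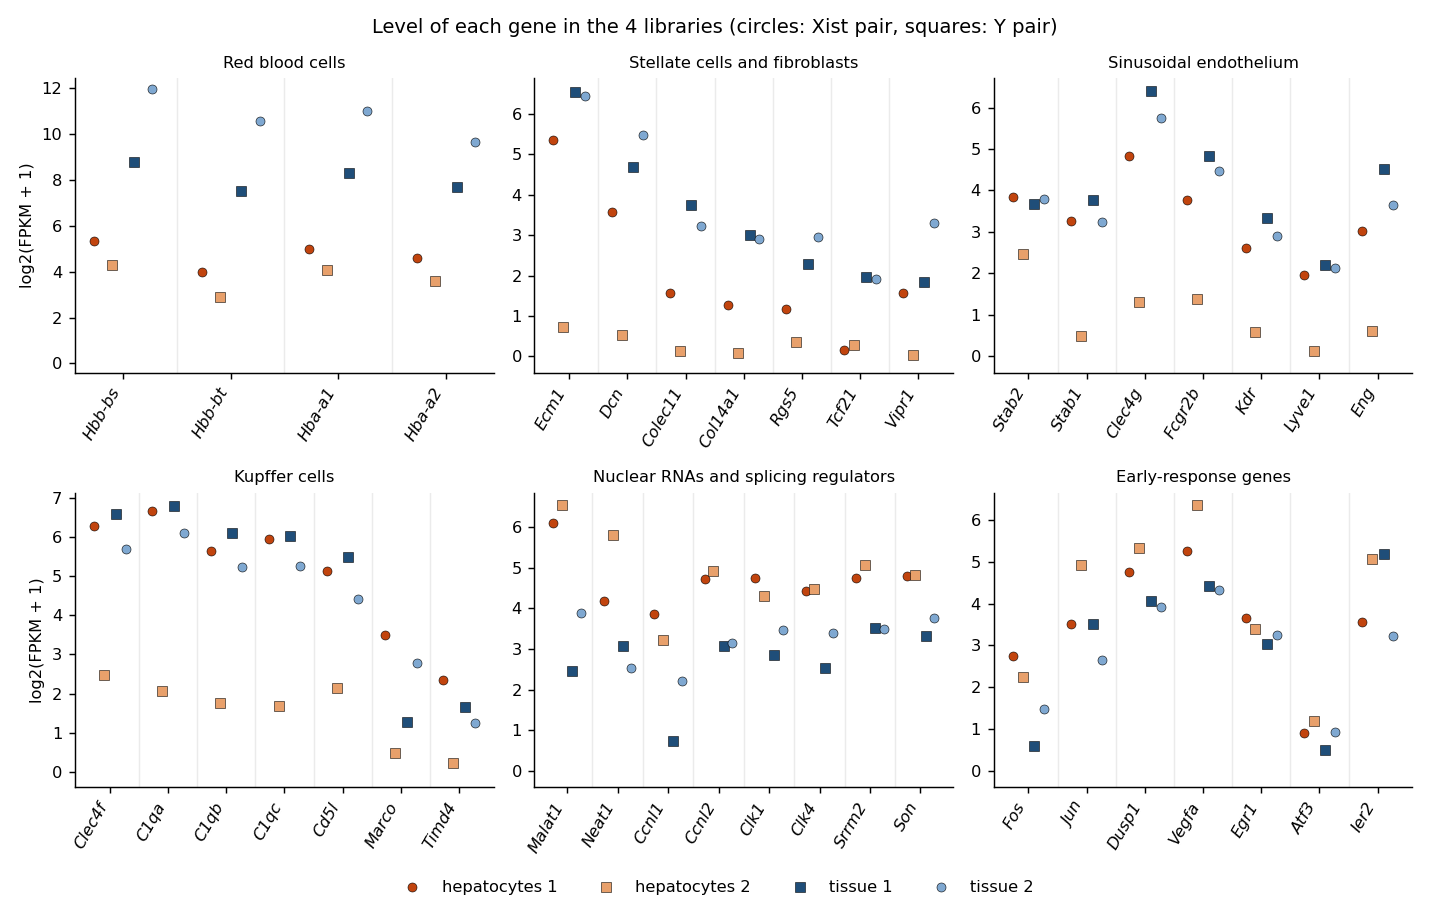
Levels of list members in hepatocytes 1 and 2 (left of each gene) and tissue 1 and 2 (right), as log2(FPKM + 1); circles are the Xist pair and squares the Y pair. Globins and stellate genes were lower in both hepatocyte libraries, sinusoidal and Kupffer genes were lowest in hepatocytes 2, as with C1qa at 3.21 FPKM, and nuclear RNAs were higher in both hepatocyte libraries.

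**Figure D4:**
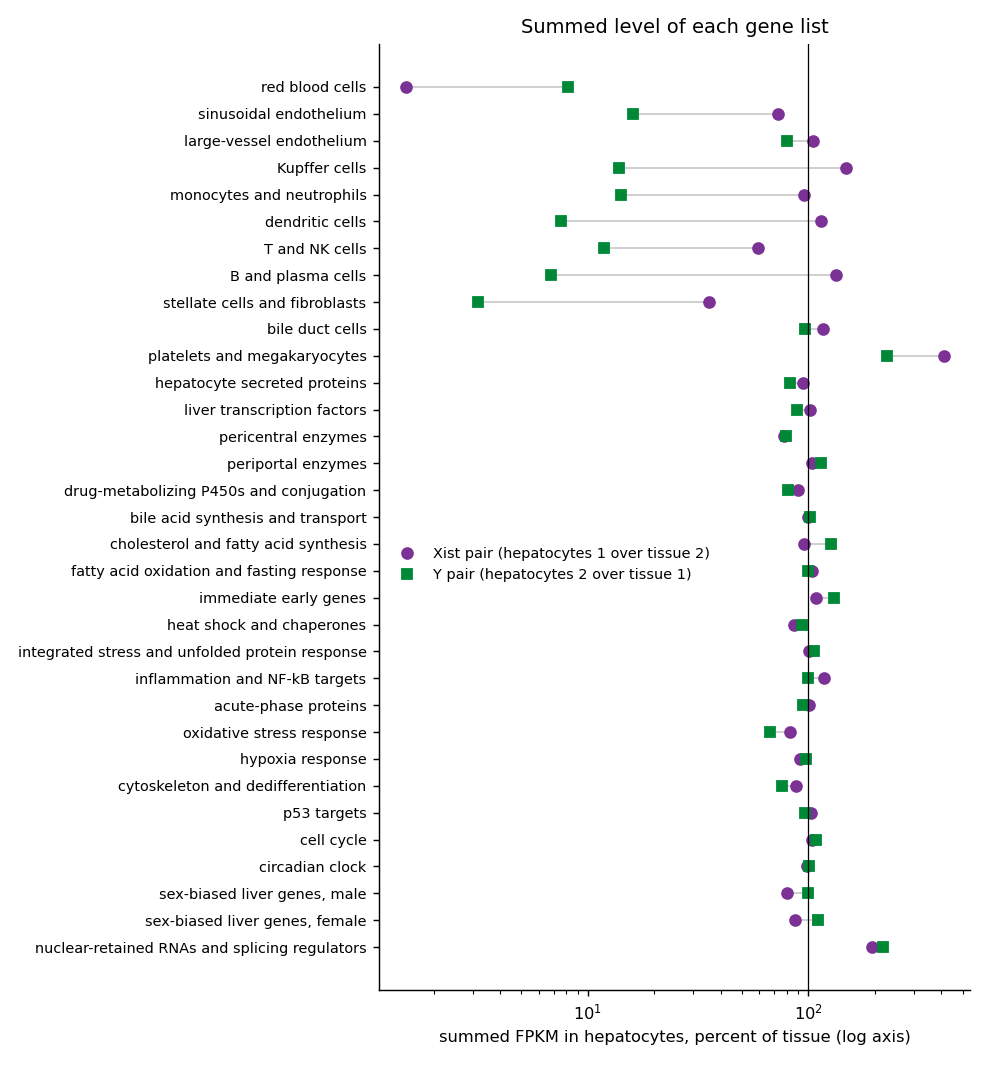
Summed FPKM of the autosomal members of each gene list in hepatocytes as a percent of tissue, in the Xist pair (circles) and the Y pair (squares), on a log axis with a line at 100%. Red cell genes stood at 1.5% and 8.1%, stellate genes at 35.4% and 3.19%, and the lists of hepatocyte functions between 77.4% and 126%.

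Genes of hepatocyte function differed little within the pairs. The list of 25 secreted proteins had a median difference of -0.02 log2 units in the Xist pair and -0.22 in the Y pair, and 0 of its members met the both-pairs rule. Apoa2, an apolipoprotein of high-density lipoprotein, measured 25308 and 29140.4 FPKM in hepatocytes, against 43922 and 28043 FPKM in tissue, and Trf, transferrin, 17342 and 15339 FPKM, against 17819 and 20394 FPKM. Alb, albumin, measured 51325 FPKM in hepatocytes 2 and 44788.5 FPKM in tissue 1 but is listed at 0 in hepatocytes 1 and tissue 2; since other secreted proteins are abundant there, only that listing can be stated. Apob, the core protein of very low-density lipoprotein, measured 704 and 723 FPKM in hepatocytes, against 322 and 675 FPKM in tissue.

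The 23 liver transcription factors had medians of 0.02 and 0.05 log2 units in the Xist and Y pairs, with Hnf4a, a master regulator of hepatocyte genes, at 163 and 155 FPKM in hepatocytes, against 148 and 172 FPKM in tissue. Prox1, a factor of liver development, was higher without overlap, with 9.85 and 14.5 FPKM in hepatocytes, against 5.66 and 9.32 FPKM in tissue. Of the 42 drug-metabolizing enzymes that passed the filter, 0 met the both-pairs rule and the median was -0.14 and -0.12 log2 units in the Xist and Y pairs. The lists of bile acid genes, of fatty acid oxidation and of cholesterol and fatty acid synthesis held medians of 0.02 to 0.03 log2 units in the Xist pair and at most 0.45 in the Y pair, and 0 of their members met the both-pairs rule. Adh1, an alcohol dehydrogenase and the highest member of the drug-metabolizing list, measured 1289 and 1256 FPKM in hepatocytes, against 1686 and 1461 FPKM in tissue. All 4 libraries thus carried hepatocyte markers at high levels, Alb in the Xist pair aside.

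As lists, pericentral genes stood lower in hepatocytes than periportal genes did, though few members of either differed without overlap. The enzymes of the pericentral zone, around the central vein, summed to 77.4% of tissue in the Xist pair and 79.2% in the Y pair, and 17 of 22 members were below 0 in the Xist pair and 15 in the Y pair. Cyp2e1 made up 39.8% of this sum, and without it the list stood at 80.8% and 87.6%. Periportal enzymes, near the incoming blood, summed to 104% in the Xist pair and 114% in the Y pair. Alb made up 70.2% of this list averaged over the 4 libraries, but is listed at 0 in both libraries of the Xist pair. Without Alb the list stood at 109% in the Y pair. In the Xist pair 15 of 23 periportal genes were above 0, and 17 in the Y pair. Glul, the glutamine synthetase of the innermost pericentral cells, measured 131 and 103 FPKM in hepatocytes, against 247 and 203 FPKM in tissue, with no overlap of the groups (limma difference -0.94, SE 0.41, not called). Cyp2e1, the ethanol-oxidizing P450, measured 1699.9 and 2582 FPKM in hepatocytes, against 3876 and 2316 FPKM in tissue, and overlapped. Cps1, the first enzyme of the urea cycle and a periportal gene, measured 823 and 994 FPKM in hepatocytes, against 565 and 574 FPKM in tissue, with no overlap. Without overlap, 4 of the 22 pericentral genes were lower and 1 higher, and 0 of the 23 periportal genes were lower and 1 higher. Over all genes 12.7% were lower and 14.9% higher without overlap. In both zonal lists 0 genes met the both-pairs rule, and the difference between the zones was not tested.

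Immediate early genes, which cells switch on within minutes of a disturbance, differed little as a list. Of the 39 genes of this list in the table, 27 passed the filter; 1 was higher by the both-pairs rule, where 0.616% of all genes were. Without overlap 5 of the 27 were higher and 2 lower, near the 14.9% and 12.7% of all genes, and the median was 0.11 log2 units in the Xist pair and 0.17 in the Y pair. Fos, a subunit of the AP-1 factor, was that gene, with 5.65 and 3.76 FPKM in hepatocytes, against 0.514 and 1.78 FPKM in tissue. Jun, its partner, measured 10.4 and 29.1 FPKM in hepatocytes, against 10.4 and 5.24 FPKM in tissue. Dusp1, a phosphatase that shuts off MAP kinases, measured 26.1 and 39.1 FPKM in hepatocytes, against 15.6 and 14.1 FPKM in tissue, without overlap but by less than 1 log2 unit in the Xist pair. Egr1 measured 11.5 and 9.44 FPKM in hepatocytes, against 7.16 and 8.46 FPKM in tissue, a gap of 0.40 and 0.36 log2 units. Errfi1, a feedback inhibitor of the EGF receptor and the highest gene of the list, measured 365 and 161 FPKM in hepatocytes, against 112 and 357 FPKM in tissue, and followed the pairs.

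Of the other stress lists, those of chaperones, the unfolded protein response and acute-phase proteins had medians near 0, while the oxidative stress and cytoskeleton lists had lower ones. The medians of the heat shock list were 0.04 and -0.02 log2 units in the Xist and Y pairs, those of the integrated stress and unfolded protein response 0.04 and 0.07, and those of the acute-phase proteins -0.06 and -0.05. Hspa8, the constitutive chaperone, measured 415 and 317 FPKM in hepatocytes, against 363 and 493 FPKM in tissue, and Hspa5, the chaperone of the endoplasmic reticulum, 657 and 332 FPKM, against 247 and 603 FPKM. The inflammation list had medians of 0.13 and -0.14 log2 units; Cxcl1, a neutrophil chemokine, measured 4.07 and 21.4 FPKM in hepatocytes, against 5.33 and 3.70 FPKM in tissue, so it was high in hepatocytes 2 alone. Vegfa, the endothelial growth factor and a hypoxia target, measured 37.1 and 80.8 FPKM in hepatocytes, against 20.4 and 19.2 FPKM in tissue, without overlap, while the hypoxia list had medians of -0.12 and 0.13. The oxidative stress list had medians of -0.14 and -0.33, with 15 of 20 members below 0 in the Xist pair and 16 in the Y pair. Without overlap 0 of the 20 were lower and 0 higher, where 12.7% and 14.9% of all genes were. Ftl1, ferritin light chain, measured 2032 and 4912 FPKM in hepatocytes, against 8697 and 2565 FPKM in tissue. The 29 genes on cytoskeleton and dedifferentiation that passed the filter had medians of -0.07 and -0.79, with 18 below 0 in the Xist pair and 27 in the Y pair, and 4 met the both-pairs rule as lower: Anxa2, S100a11, Lgals1 and Spp1. Anxa2, an annexin, measured 1.43 and 0 FPKM in hepatocytes, against 5.40 and 4.81 FPKM in tissue, and Actb, beta-actin, 306 and 661 FPKM, against 824 and 347 FPKM.

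The genes higher in both pairs included RNAs that stay in the nucleus and regulators of splicing. The list of 33 such genes was drawn up after the values were seen, so its counts describe and support nothing: 30 passed the filter, 12 met the both-pairs rule as higher, where 0.616% of all genes did, and 24 were higher without overlap, where 14.9% of all genes were. Its medians were 1.01 log2 units in the Xist pair and 1.28 in the Y pair. By at least 1 log2 unit, 15 members were higher in the Xist pair, where 1.77% of all genes were, and 19 in the Y pair, where 5.11% were. Malat1, a long RNA of nuclear speckles (chr19:5795690-5802672, minus strand), measured 68.2 and 92.6 FPKM in hepatocytes, against 4.52 and 13.7 FPKM in tissue (limma difference 3.16, SE 0.58, adjusted p = 0.349). Neat1, the scaffold RNA of paraspeckles (chr19:5824708-5845478, minus strand), measured 17.04 and 55.5 FPKM in hepatocytes, against 7.50 and 4.77 FPKM in tissue. Both hepatocyte libraries lay above both tissue libraries for these RNAs, by 4.97-fold for Malat1 in the Xist pair and 20.5-fold in the Y pair.

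Ccnl1 and Ccnl2 encode the L-type cyclins, partners of kinases that act on splicing. Ccnl2 measured 25.6 and 29.6 FPKM in hepatocytes, against 7.38 and 7.94 FPKM in tissue, with little spread inside each group (limma difference 1.72, SE 0.29, adjusted p = 0.279). Ccnl1 measured 13.6 and 8.36 FPKM in hepatocytes, against 0.658 and 3.64 FPKM in tissue. Clk1, a kinase of splicing factors, measured 25.8 and 18.6 FPKM in hepatocytes, against 6.20 and 10.1 FPKM in tissue. Clk4, a kinase of the same family, measured 20.4 and 21.4 FPKM in hepatocytes, against 4.79 and 9.45 FPKM in tissue. These cyclins and kinases were all higher in both hepatocyte libraries than in either tissue library. Srrm2, a large protein of nuclear speckles, measured 25.8 and 32.4 FPKM in hepatocytes, against 10.4 and 10.2 FPKM in tissue, and Son, another such protein, 26.9 and 27.3 FPKM, against 9.02 and 12.6 FPKM.

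Of the 65 genes higher in both pairs, 34 had a promoter in the RefSeq table, and 4 of these, or 11.8%, held the cAMP response element TGACGTCA in the 250 bases before a start site; the share was 3.03% over the 7926 measured genes with a promoter and 2.5% over the 40 lower genes with one. The promoters of Ccnl1 (chr3:65958250-65958499, minus strand) and Clk4 (chr11:51262864-51263113, plus strand) are printed as the splicing genes among the 4, from build GRCm38.p6, 5′ to 3′, with the element in capitals. Of the other motifs searched on both strands, AP-1 (TGANTCA) was held by 2 of the 34 higher genes, or 5.88%, and by 5.61% of the measured genes, and the E-box (CACGTG) by 5, or 14.7%, and by 10.2% of the measured genes. HNF1 was held by 1 higher gene, or 2.94%, and by 0.101% of the measured genes. The heat shock element, PU.1 and the serum response element were held by 0 higher genes. The heat shock element was held by 5 of the 40 lower genes, or 12.5%, and by 6.25% of the measured genes. Both gene sets come from these same data and several motifs were searched, so these shares describe and support nothing.
Ccnl1: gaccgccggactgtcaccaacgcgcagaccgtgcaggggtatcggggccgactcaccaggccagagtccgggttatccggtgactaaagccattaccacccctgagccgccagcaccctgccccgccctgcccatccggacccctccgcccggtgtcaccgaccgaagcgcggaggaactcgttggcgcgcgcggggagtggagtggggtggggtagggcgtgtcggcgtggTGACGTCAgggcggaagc
Clk4: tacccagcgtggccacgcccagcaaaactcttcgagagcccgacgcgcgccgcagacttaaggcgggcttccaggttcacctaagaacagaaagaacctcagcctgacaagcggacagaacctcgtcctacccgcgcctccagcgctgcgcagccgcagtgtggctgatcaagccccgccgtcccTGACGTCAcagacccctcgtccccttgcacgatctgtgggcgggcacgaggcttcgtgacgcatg
The element begins 18 bases before the start site in Ccnl1 and 65 bases before it in Clk4. A match of 8 letters is a description and not a binding site.

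Genes outside any list were also higher in both pairs, named for the size of their difference after their values were seen. Rexo5, an RNA exonuclease, measured 14.6 and 7.45 FPKM in hepatocytes, against 0.452 and 0.279 FPKM in tissue. That is a 52.4-fold difference in the Xist pair and 16.5-fold in the Y pair, both over tissue values under 1 FPKM. Rexo5 passed the filter through hepatocytes alone, so the filter set its direction. It overlaps Eri2, which measured 4.01 and 5.10 FPKM in hepatocytes, against 3.35 and 3.22 FPKM in tissue. Ece1, endothelin-converting enzyme, measured 922 and 1477 FPKM in hepatocytes, against 441 and 179 FPKM in tissue. Echdc2, a mitochondrial enoyl-CoA hydratase family member, measured 81.6 and 82.0 FPKM in hepatocytes, against 38.6 and 36.0 FPKM in tissue. Usp1, a deubiquitinase, measured 15.4 and 22.7 FPKM in hepatocytes, against 5.97 and 5.09 FPKM in tissue. Malat1 overlaps the gene model Gm37376 on the opposite strand, at 79.3 and 59.4 FPKM in hepatocytes, against 1.88 and 15.8 FPKM in tissue, and without strand the reads of such pairs cannot be told apart. Of the 65 genes, 28 were not protein-coding (43.1%), against 16 of the 73 lower genes (21.9%) and 823 of the 10545 measured genes (7.8%).

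Transcript length moved with the difference. Among the 9722 protein-coding genes, the group with the shortest transcripts of 5 equal groups (201 to 1855 bases for the longest annotated form) had a median difference of -0.22 log2 units in the Xist pair and -0.44 in the Y pair, and the group with the longest (5044 to 40378 bases) 0.12 and 0.45. The rank correlation of length and difference was 0.313 in the Xist pair and 0.5 in the Y pair, a description across genes that share the same 4 libraries. The 74 ribosomal protein genes, mostly short, summed to 22818 and 22696 FPKM in hepatocytes, against 38956 and 32169.6 FPKM in tissue. The median length was 1236 bases for the genes lower in both pairs, 3437 bases for those higher and 3056 bases for all genes measured, and 4544 bases for the nuclear RNAs and splicing regulators. With the length trend of each library subtracted, an alternative chosen after the trend was seen, 49 of the 73 lower and 50 of the 65 higher genes still met the rule, Malat1, Ccnl1, Ccnl2, Clk1 and Clk4 among them. The splicing genes Srrm2, Son and Leng8 then fell short of 1 log2 unit in at least 1 pair, with 0.93 for Srrm2 and 0.88 for Son in the Y pair, as did the lower genes Lgals1, at -0.82 in the Xist pair, and Pet100, at -0.76 in the Y pair. Without the trend, Hbb-bs differed by -6.39 and -4.06 log2 units in the Xist and Y pairs and Ecm1 by -1.03 and -5.64.

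**Figure D5:**
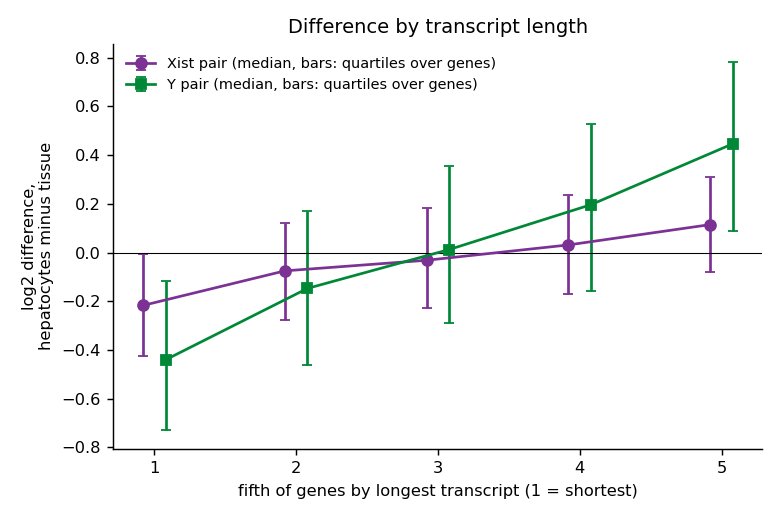
Median difference in log2(FPKM + 1), hepatocytes minus tissue, of protein-coding genes in 5 equal groups by transcript length, for the Xist pair (circles) and the Y pair (squares); bars span the quartiles over genes. The medians run from -0.22 to 0.12 in the Xist pair and from -0.44 to 0.45 in the Y pair.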

How the data were processed

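RNA from each sample was isolated with a column kit, poly-A RNA was selected with oligo-dT beads, and libraries were made with the NEBNext Ultra RNA kit, per the labels' protocols. The submitters' processing notes name TopHat2 as the aligner and mm10 as the build; the version, counting tool and annotation are not given in the sources used here. The deposited values are FPKM, scaled by the authors to gene length and library size; no scaling between libraries is stated. Depth is therefore known only from the spacing of low values, and no intervals were computed.

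Of 48396 rows, 118 with a repeated identifier were dropped. GENCODE vM21 matched 99.2% of the 48278 genes used and gave symbols and positions; 43597 were autosomal. Values were taken as log2(FPKM + 1), so differences of low genes are understated. A gene was kept at 1 FPKM or more in any 2 of the 4 libraries. limma 3.58.1 (R 4.3.3) was fitted to all 10 libraries of the table with a variance trend. The fit was also run on simulated data that held no Xist and Y pairs, so that run does not check it for a split like the one seen here. Tests were two-sided and adjusted by Benjamini-Hochberg over 10870 genes, of which 10545 autosomal ones are reported. Hepatocytes and tissue have 2 libraries each. The pairs were set from Xist and Y-linked transcripts, and the difference within each pair was computed without a test.

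Promoters came from RefSeq (GRCm38.p6), and transcript identity was computed with Biopython 1.88. Alternatives were another pseudocount, no filter, 2 other scalings, other model settings and leaving out each library; the pair term, the removal of the length trend and list sums without 1 member were added after the values were seen. The members, gene lists and tests were chosen with earlier results of these data known. Genes to be named were called genes (none), the highest uncalled members of each list, the markers Hbb-bs, Stab2 and Clec4f, sex-biased genes and the highest genes of each group; all others were chosen after their values were seen. The list of nuclear RNAs and splicing regulators was also drawn up then. The 4 other tables of the series were not used here, and some genes are not reported here.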

Additional observations from a re-analysis of the deposited data

How the results depend on the processing

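No paired analysis was possible because the labels give hepatocyte and tissue libraries no shared replicate numbers, so the design itself sets no pairs. The pair term instead rests on the Xist and Y pairs, read from the data, and called 6 genes where the design reported called 0. The count of genes called by limma was 0 in the design reported, with a pseudocount of 0.1, in the 4 libraries alone, without the variance trend and after rescaling without the 20 highest genes. It was 7 without a filter (5 higher, 2 lower), 1 with median-ratio scaling (0 higher, 1 lower) and 6 with the pair term (1 higher, 5 lower). Leaving out 1 library gave 0 to 11 called genes, 0 to 1 higher and 0 to 10 lower: 11 without hepatocytes 1, among them Clec4f, Clec4g, Ecm1 and Col14a1, and 2 without tissue 1, Hbb-bs and Hbb-bt. The lone library of a group is then assumed to vary like the others. Of 451 values for 41 named genes under these alternatives, 440 kept direction and call, 9 became called, and 2 reversed: without hepatocytes 2, Stab2 stood at 0.10 and Clec4f at 0.15 log2 units. Leaving out 1 library gave -1.26 to 0.10 for Stab2 and -3.66 to 0.15 for Clec4f, the lowest values without hepatocytes 1.

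The genes lower in both pairs numbered 138 with a pseudocount of 0.1, and the genes higher 148; with median-ratio scaling they numbered 109 lower and 112 higher. These include all 73 lower genes in both settings, and 65 and 63 of the 65 higher genes. Rescaling without the 20 highest genes gave 60 lower and 95 higher and set the median of all genes at 0.13 log2 units, against -0.02 in the design reported, so differences under that setting read relative to it. The rule needs all 4 libraries, so it has no value without one of them. With 2 libraries a group, counts that are not known and a split between the pairs inside each group, few differences can be called.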

Other observations

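Some lists described no difference between hepatocytes and tissue but differed between the Xist and Y pairs. The female-biased list of 27 autosomal genes summed to 6297 and 331 FPKM in hepatocytes 1 and 2, against 298 and 7268 FPKM in tissue 1 and 2, and the male-biased list of 22 genes to 2371 and 20741 FPKM, against 20917 and 2951 FPKM. Serpina6, the corticosteroid-binding globulin, measured 15954 and 561 FPKM in hepatocytes 1 and 2, against 626 and 15614 FPKM in tissue 1 and 2. G6pc, the glucose-releasing phosphatase of the liver, measured 324 and 13.9 FPKM in hepatocytes, against 5.21 and 258 FPKM in tissue, and Scd1, a fatty acid desaturase, 6.52 and 304 FPKM, against 203 and 6.93 FPKM. In the clock list, Dbp measured 13.1 and 74.98 FPKM in hepatocytes, against 121 and 19.1 FPKM in tissue, and Per3, which was higher in hepatocytes without overlap, 3.75 and 7.42 FPKM, against 2.88 and 2.79 FPKM. The cell cycle and p53 lists were low and had 0 members past the rule in both pairs. The 37 mitochondrial genes summed to 88383 and 63124 FPKM in hepatocytes, against 57589 and 63974 FPKM in tissue.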
